A study of Homo sapiens with 2 samples.

Results

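The 10 receptor tyrosine kinases MET, MST1R, EGFR, ERBB2, ERBB3, FGFR1, FGFR2, FGFR3, FGFR4 and IGF1R were taken by name, with every array probe whose gene name in the scanner files is one of them. They had 20 probes of 34127 gene probes and were 10 of 25940 gene names on the array. RNA was compared in MKN74 and MKN45, established human gastric cancer cell lines of epithelial origin. In each line, cells electroporated with 50 nM SET7/9 siRNA were compared with cells given the same dose of negative control siRNA, 48 hrs after transfection. SET7/9 is the lysine methyltransferase encoded by SETD7. The 2 cultures of a line were hybridised to 1 array, with the SET7/9 siRNA sample in Cy5 and the negative control sample in Cy3 on both arrays and no dye swap. The sources used here do not say which SET7/9 siRNA the arrays were run with. With 1 array per cell line there was no test within a line or between the lines, and cell line, culture and array cannot be told apart in any comparison between MKN74 and MKN45.

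Receptor tyrosine kinases cross the cell membrane, bind a growth factor outside the cell and phosphorylate themselves and docking proteins inside it, which switches on the RAS-ERK and PI3K-AKT pathways. MET is the receptor of hepatocyte growth factor, and MST1R, also called RON, is its close relative and binds macrophage-stimulating protein. EGFR, ERBB2 and ERBB3 form pairs with each other, where ERBB2 has no ligand of its own and ERBB3 has little kinase activity. The FGF receptors differ in the fibroblast growth factors that they bind, and IGF1R binds the insulin-like growth factors. Amplification of MET, ERBB2, EGFR or FGFR2 is known in a part of gastric cancers, and MKN45 is known as a line with an amplified MET gene. DNA was not measured on these arrays, and receptor protein or phosphorylation was not measured either.

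The array carries 60-base DNA probes, and the printed stretches below are the ones on which the measurements turn. The MET probe gave the widest difference between the cell lines among the receptor probes measured on both arrays. It lies at chr7:116438290-116438349 of GRCh37 (plus strand), and its bases 1 to 30 are shown. The FGFR4 probe lies at chr5:176523121-176523180 (plus strand). The capitals mark the codons of the DFG motif, which sits in the active site of protein kinases. The 3 ERBB3 probes are shown because they disagreed. They lie at chr12:56496160-56496219 (probe 1, bases 1 to 30 shown), chr12:56479217-56479276 (probe 2, bases 31 to 60 shown) and chr12:56482380-56482439 (probe 3, whole), all on the plus strand. In ERBB3 probe 2 the capitals mark a run of 16 bases that is also found, on either strand, in a probe of another transcript on the array.
MET: gtgtctggacagattgtgggagtaagtgat
FGFR4: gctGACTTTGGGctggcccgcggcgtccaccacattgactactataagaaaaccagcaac
ERBB3 probe 1: gctcttgactacttggaactaggctcttat
ERBB3 probe 2: ggccaggcctgaTGGCTTACACCTGTAAtc
ERBB3 probe 3: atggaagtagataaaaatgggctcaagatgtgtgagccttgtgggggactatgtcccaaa
No other run of more than 15 bases was shared between a receptor probe and a probe of another gene, and the probes of different FGF receptors shared at most 8 bases in a row. Probes of a gene are numbered here from the brightest to the dimmest, and signals of different probes are not compared with each other.

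SETD7 was lower with SET7/9 siRNA on both arrays, at -2.03 (scanner error 0.28) in MKN74 and at -1.95 (scanner error 0.28) in MKN45 on the log2 scale of SET7/9 siRNA over negative control siRNA. GAPDH was at -0.08 and 0.00. Knockdown ratios were read from the 20674 probes of MKN74 and the 22830 probes of MKN45 whose signal stood well above background in Cy3 or Cy5. Repeated spots of a probe had a pooled SD of 0.087 on the MKN74 array and of 0.099 on the MKN45 array in their log2 ratios. This SD and the scanner error cover variation within an array and not between cultures. All 8 epithelial markers were measured in both channels on both arrays. Of 8 mesenchymal markers 6 in MKN74 and 5 in MKN45 were not well above background in either channel. Of 5 leukocyte markers on the array, 2 in MKN74 and 3 in MKN45 were measured in both channels.

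Among the receptor probes above background on both arrays, MET differed most between negative control cells of the 2 lines. Its probe was spotted 10 times on each array, of which 8 spots in MKN74 and 9 in MKN45 were free of outlier flags. The processed signal was 2719 with the negative control and 2591 with SET7/9 siRNA in MKN74, and 79646 and 84236 in MKN45. The negative control signal of its single spots lay between 2511 and 2879 for MKN74 and between 71678 and 94299 for MKN45, so that the lines did not overlap. After scaling of both arrays to each other (Aquantile), the MET signal of negative control cells was 30.6-fold higher in MKN45, a log2 difference of 4.94 (scanner error 0.20). It was 5.16 with the 75th percentile of each array as the scale, 4.81 after normexp background correction and 5.09 in the SET7/9 siRNA channel. Normexp was run with an offset of 50 added to the signals, which by itself shrinks ratios and differences of dim probes. Of all 21613 probes above background in Cy3 on at least 1 array, 611 had a higher difference after Aquantile scaling.

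MST1R, measured by a probe at chr3:49924693-49924752, was also higher in MKN45. Its negative control signal was 665 in MKN74 and 3191 in MKN45, and its SET7/9 siRNA signal was 668 and 3176. The scaled difference was 2.56 on the log2 scale (scanner error 0.20), or 5.91-fold. Neither MET nor MST1R differed between SET7/9 siRNA and negative control siRNA by more than its scanner error. MET had a log2 ratio of -0.07 (scanner error 0.20) in MKN74 and of 0.08 (scanner error 0.20) in MKN45. Its spots lay on both sides of 0 on each array, between -0.12 and 0.04 for MKN74 and between -0.08 and 0.17 for MKN45. MST1R was at 0.01 and -0.01, each with a scanner error of 0.20.

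**Figure D1:**
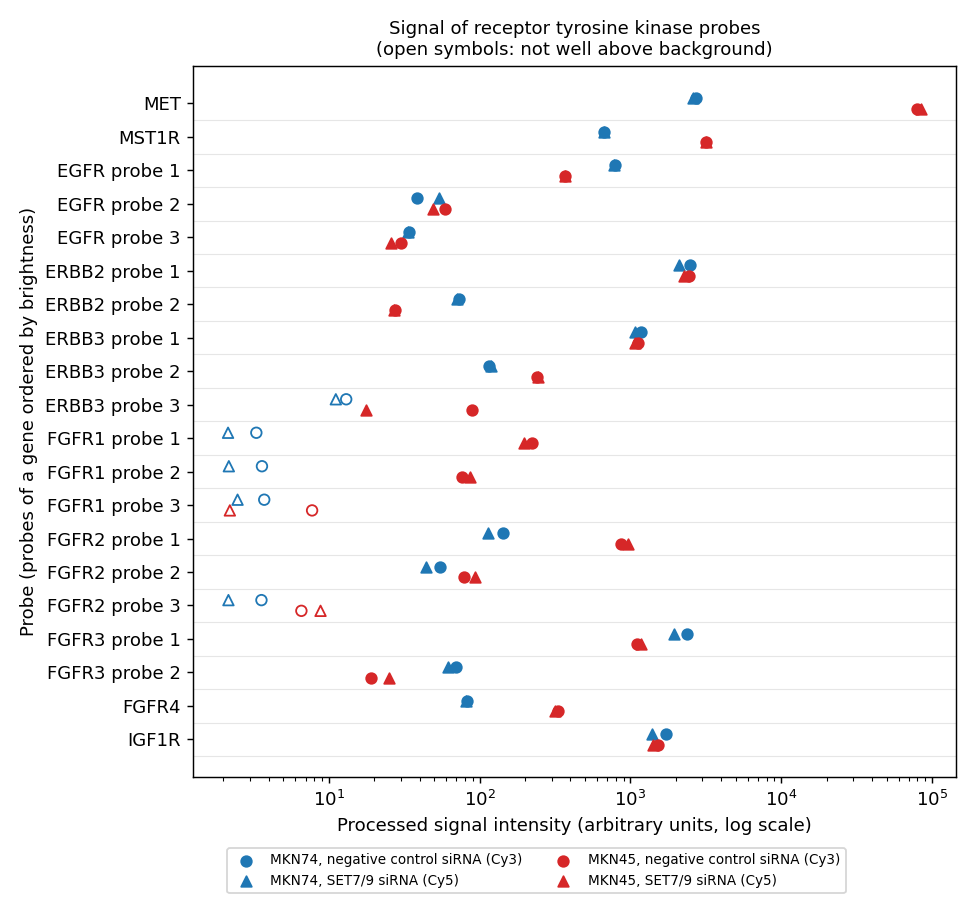
Processed signal intensity in arbitrary units (log axis) of the 20 probes in the 4 samples, with circles for negative control siRNA (Cy3), triangles for SET7/9 siRNA (Cy5), blue for MKN74 and red for MKN45. Open symbols were not well above background. The 2 siRNA samples of a line sit close to each other for most probes, while MET, MST1R, FGFR2 probe 1 and FGFR4 sit apart between the lines.

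Among the EGF receptor family, the brightest probe of each gene differed between the lines by less than 2-fold. EGFR probe 1 (chr7:55274841-55274900) had 10 spots on each array. Its negative control signal was 790 in MKN74, with spots from 694 to 843, and 368 in MKN45, with spots from 357 to 388, a log2 difference of -0.85 (scanner error 0.20) after scaling. The spots of the lines did not overlap, and the difference was 1.80-fold. ERBB2 probe 1 (chr17:37884829-37884888) had signals of 2481 and 2434 in negative control cells and 2105 and 2267 with SET7/9 siRNA in MKN74 and MKN45. Its spots overlapped between the lines, and the scaled log2 difference was 0.30 (scanner error 0.20). ERBB3 probe 1 had signals of 1179 and 1130 in negative control cells and 1065 and 1078 with SET7/9 siRNA, with a scaled log2 difference of 0.22 (scanner error 0.20).

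The knockdown ratios of these 3 probes were small. EGFR probe 1 was at -0.02 in MKN74 and 0.00 in MKN45, and its spots lay on both sides of 0 on each array. ERBB2 probe 1 was at -0.24 (scanner error 0.21) in MKN74 and -0.10 (scanner error 0.20) in MKN45, with all 9 spots below 0 in MKN74, from -0.29 to -0.18, and all 10 below 0 in MKN45, from -0.13 to -0.03. The spots repeat the same pair of RNA samples and say nothing of other cultures. ERBB3 probe 1 was at -0.15 and -0.07, both within the scanner error of 0.20.

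The other probes of this family were dimmer, and those of EGFR and ERBB2 did not all share the sign of the brightest probe between the lines. EGFR probe 2 (chr7:55224558-55224617), designed to transcript variant 3, had signals of 38.3 and 53.7 in MKN74 and 58.9 and 48.7 in MKN45 for negative control and SET7/9 siRNA. Its log2 ratio was thus 0.49 (scanner error 0.26) in MKN74 and -0.28 (scanner error 0.24) in MKN45. After normexp and loess these ratios were 0.25 and -0.02. Between the lines its negative control signal differed by 0.20 on the log2 scale (scanner error 0.28), and by 0.92 with the 75th percentile scale. EGFR probe 3 (chr7:55231446-55231505), designed to variant 2, had signals of 33.8 and 33.6 in MKN74 and 29.9 and 25.9 in MKN45. Its knockdown ratios of -0.01 and -0.21 were within its scanner error on both arrays, and its difference between the lines was -0.76 with Aquantile but 0.12 with the 75th percentile scale. ERBB2 probe 2 (chr17:37851136-37851195) is annotated in the files as the 5' UTR of an ERBB2 mRNA. Its signals were 72.4 and 70.3 in MKN74 and 27.3 and 26.9 in MKN45. Its knockdown ratios were -0.04 and -0.02, and between the lines it was lower in MKN45 by a log2 difference of -1.88 (scanner error 0.28), opposite in sign to probe 1. This difference was -1.11 with the 75th percentile scale and -0.82 after normexp. ERBB3 probe 2, for transcript variant s, had signals of 115 and 119 in MKN74 and 241 and 244 in MKN45. Its knockdown ratios were 0.05 and 0.02, and it was 2.06-fold higher in negative control cells of MKN45, a log2 difference of 1.04 (scanner error 0.21) that was 0.76 after normexp.

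ERBB3 probe 3 was the only receptor probe past 1.5-fold in the knockdown comparison. In MKN45 its signal was 88.9 with negative control and 17.6 with SET7/9 siRNA, a log2 ratio of -2.34 (scanner error 0.33) from a single spot, and 99.8% of the probes used in MKN45 had a smaller change in size. In MKN74 its signals, the higher of them 13.03 in Cy3, were not well above background in either channel. Its negative control signal was at least 3.31-fold higher in MKN45 than in MKN74. The scaled log2 difference between the lines was 2.12 (scanner error 0.54), but 0.67 after normexp and 0.02 in the SET7/9 siRNA channel. This difference and the knockdown ratio share the same single Cy3 spot of MKN45. After normexp and loess the ratio in MKN45 was -0.70, which is in the same direction and past 1.5-fold. On the same array ERBB3 probes 1 and 2 were at -0.07 and 0.02, so that the 3 probes of ERBB3 spanned 2.35 on the log2 scale. Probes 1 and 3 are annotated to the same transcript, so the annotation does not set them apart. The capitals in probe 2 mark its longest shared run, and probe 3 shared at most 15 bases in a row with a probe of another gene.

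The FGF receptors were mostly higher in MKN45, with the exception of FGFR3. FGFR4 had signals of 82.6 and 331 in negative control cells of MKN74 and MKN45 and of 81.3 and 316 with SET7/9 siRNA. Its scaled log2 difference was 1.98 (scanner error 0.21), or 3.95-fold, and was 2.30 with the 75th percentile scale and 1.44 after normexp. FGFR2 probe 1 (listed at chr10:123237830-123237843, which covers 14 of its bases, minus strand) had signals of 143 and 868 in negative control cells and 113 and 959 with SET7/9 siRNA. Its scaled difference was 2.69 (scanner error 0.21), or 6.46-fold. FGFR2 probe 2 (chr10:123243217-123243276) did not share this size. Its signals of 54.5 and 78.6 gave a scaled log2 difference of 0.19 (scanner error 0.24), which was 0.82 with the 75th percentile scale and 0.74 in the SET7/9 siRNA channel. FGFR2 probe 3 was not well above background in any sample.

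FGFR3 probe 1 (chr4:1810363-1810422) was lower in MKN45, with signals of 2371 and 1101 in negative control cells and 1955 and 1169 with SET7/9 siRNA. Its scaled log2 difference was -0.81 (scanner error 0.20), or 1.75-fold. It was -0.44 in the SET7/9 siRNA channel. FGFR3 probe 2 (chr4:1809054-1809113) was dim, at 69.3 and 19.1, and its difference of -2.38 moved to -1.57 with the 75th percentile scale and to -0.77 after normexp.

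FGFR1 was well above background only in MKN45. FGFR1 probe 1 had signals of 224 with negative control and 197 with SET7/9 siRNA in MKN45, and FGFR1 probe 2 had 76.5 and 86.7. In MKN74 neither probe was well above background in either channel. The negative control signal was therefore at least 10.3-fold higher in MKN45 by probe 1 and at least 3.13-fold higher by probe 2. These bounds set the MKN74 side to the lowest scaled Cy3 signal that still counted as well above background there. After normexp the fitted log2 differences were 2.25 and 1.24. FGFR1 probe 3 was not well above background on either array. IGF1R (chr15:99507366-99507425) differed between the lines by less than its scanner error, with signals of 1718 and 1531 in negative control cells and 1385 and 1403 with SET7/9 siRNA. Its scaled log2 difference was 0.14 (scanner error 0.20).

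In the knockdown comparison, no FGF receptor or IGF1R probe passed 1.5-fold. FGFR2 probes 1 and 2 were below 0 in MKN74, at -0.33 (scanner error 0.21) and -0.31 (scanner error 0.24), and above 0 in MKN45, at 0.14 (scanner error 0.20) and 0.24 (scanner error 0.22). FGFR3 probes 1 and 2 had the same signs, with -0.28 (scanner error 0.21) and -0.18 (scanner error 0.23) in MKN74 and 0.09 (scanner error 0.20) and 0.40 (scanner error 0.34) in MKN45. The difference between the lines in these ratios was not tested, as each line had 1 array. IGF1R was at -0.31 (scanner error 0.21) in MKN74 and -0.13 (scanner error 0.20) in MKN45. FGFR4 was at -0.02 and -0.07, and FGFR1 probes 1 and 2 in MKN45 were at -0.18 and 0.18.

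**Figure D2:**
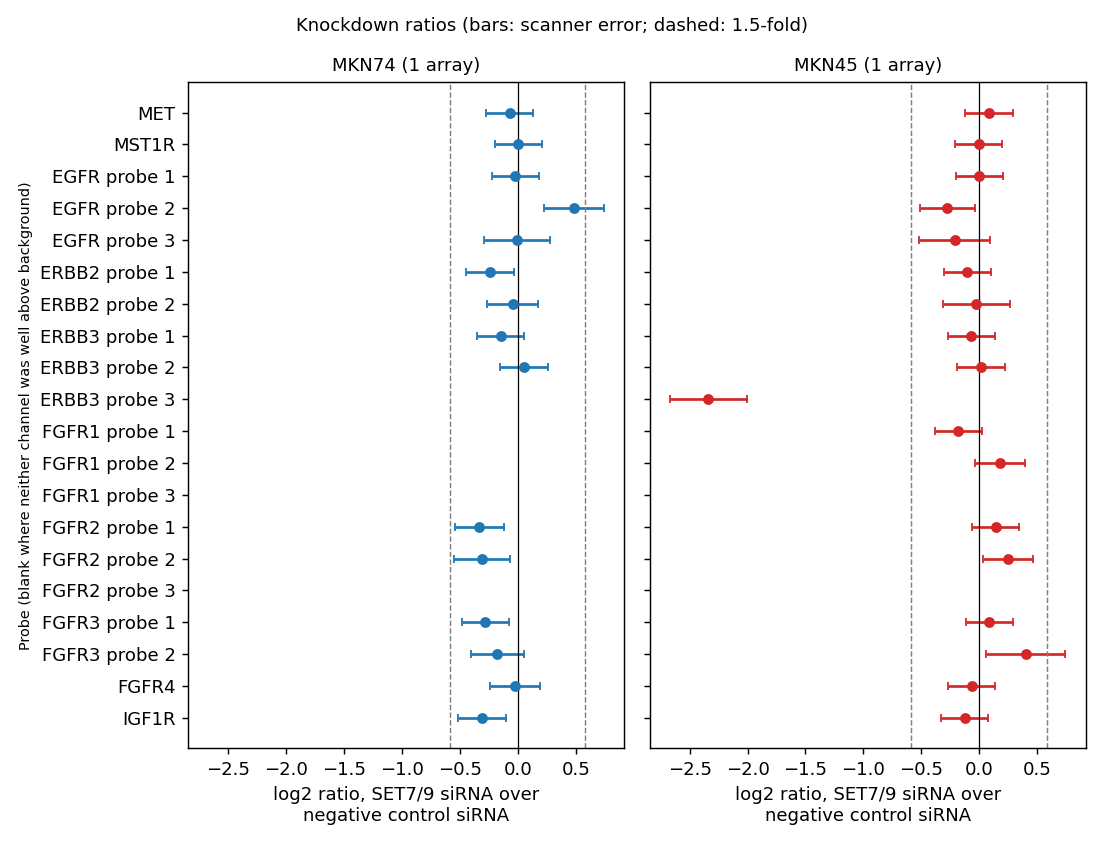
Log2 ratio of SET7/9 siRNA to negative control siRNA for each receptor probe (points) with the scanner error (bars), in MKN74 on the left and MKN45 on the right. Dashed lines mark 1.5-fold. The ratio of ERBB3 probe 3 in MKN45, -2.34, is the only one outside them.

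Both channels were well above background for 15 of the 20 probes in MKN74, of 9 genes, and for 18 in MKN45, of all 10 genes. No probe of the 10 genes was higher by 1.5-fold with SET7/9 siRNA in either line. This compares with 3.78% of all probes used in MKN74 and 4.81% in MKN45. At least 1.5-fold lower were 0 of 15 probes in MKN74 and 1 of 18 in MKN45, against 1.76% and 1.97% of all probes. The median log2 ratio of the receptor probes was -0.07 in MKN74, where 12 of 15 were below 0, and -0.02 in MKN45, where 10 of 18 were below 0. Over all probes the medians were 0.01 in both lines, with 48.8% below 0 in MKN74 and 47.1% in MKN45. The ratio exceeded its scanner error for 6 of 15 probes in MKN74 and 4 of 18 in MKN45. The share of all probes that did so was not computed, so these counts say nothing particular to the receptors. The median size of the ratio was 0.15 for the receptor probes and 0.13 for all probes in MKN74. In MKN45 it was 0.11 and 0.14.

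For the response common to both lines, the 2 arrays were fitted as replicates in limma against 0, with 1 residual degree of freedom per probe. None of the 15 receptor probes in this fit passed an adjusted p of 0.05, and 0% of all 19595 probes passed. SETD7, the target of the siRNA, did not pass either, so the lack of a passing receptor probe says little. At an unadjusted p under 0.05 there were 0 receptor probes and 2569 probes in all. The lowest value among the receptors was that of IGF1R, with a mean log2 ratio of -0.22 and a limma adjusted p of 0.396 (unadjusted p = 0.0747), lower in both of 2 lines. After normexp and loess, 1708 probes passed in the same fit and again none of the receptor probes.

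Between the lines, 8 of 18 receptor probes, of 6 genes, were at least 2-fold higher in negative control cells of MKN45, where 22.2% of all probes were. At least 2-fold lower were 2 probes, of ERBB2 and FGFR3, where 22.3% of all probes were. Both of these were the dim second probes. After normexp 6 receptor probes were higher and 0 lower, where 13.2% and 13.3% of all probes were. ERBB3 probes 2 and 3, at 0.76 and 0.67, were then no longer past 2-fold. The offset of 50 in normexp shrinks differences between dim signals by itself, so such falls were partly fixed in advance. Counting only the 15 probes above background in Cy3 on both arrays, 5 were higher and 2 lower, where 14.4% and 20.7% of all such probes were. By the brightest probe of each gene, MET, MST1R, FGFR1, FGFR2 and FGFR4 were higher, none was lower, and the other 5 genes lay within 2-fold. Over the probes above background on both arrays, the median size of the difference was 0.85 on the log2 scale for the receptors and 0.69 for all. With the 75th percentile scale the median of all probes moved from -0.03 to 0.26, and 28.3% were higher and 17.1% lower, while 8 and 2 receptor probes were.

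**Figure D3:**
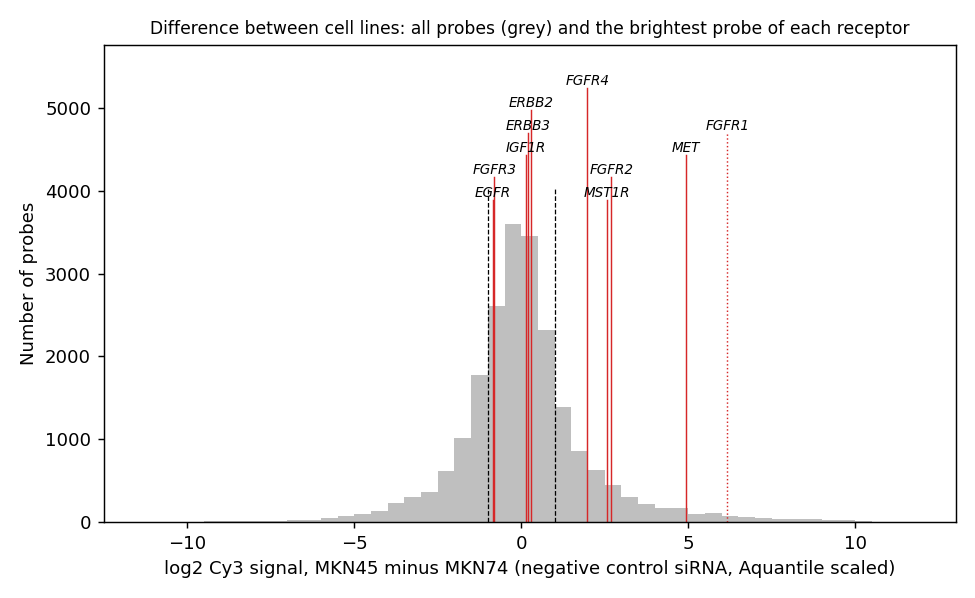
Histogram of the log2 difference of Cy3 signal, MKN45 minus MKN74, for 21613 probes (grey, in bins of 0.5) with the brightest probe of each of the 10 receptors as a red line, dotted for FGFR1, which was not well above background in MKN74. Dashed lines mark 2-fold. MET at 4.94 lies far to the right, and ERBB2, ERBB3 and IGF1R lie between 0.14 and 0.30.

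Probes of other genes within 1 Mb of each receptor were then examined on GRCh37. Of all probes, 22.2% were at least 2-fold higher in MKN45 and 22.3% lower. Around MET, 13 of 14 such neighbour probes, of 8 genes, were at least 2-fold higher in MKN45. The median difference was 3.13 on the log2 scale, against -0.03 for all probes. This median was 2.15 over the 11 probes above background on both arrays and 1.73 after normexp. The nearest named genes on one side were CAPZA2, which encodes a subunit of actin capping protein, at 120 kb with log2 differences of 3.49 and 3.54 for its 2 probes, and ST7-AS1 at 154 kb with 2.77. The CAPZA2 probes had negative control signals of 922 and 90.4 in MKN74 and of 8652 and 1028 in MKN45. On the other side were CAV1 and CAV2, which encode caveolins, at 1.62 for both CAV1 probes and at 1.56 and 1.55 for the 2 CAV2 probes. Of the 13 probes, 10 were above background in Cy3 on both arrays, with differences from 1.55 to 3.60, all smaller than that of MET itself. After normexp 12 of the 14 were past 2-fold, where 13.2% of all probes were higher and 13.3% lower. Their median knockdown ratios were 0.00 in MKN74 and -0.05 in MKN45.

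Around MST1R, 22 of 59 probes were at least 2-fold higher in MKN45 and 2 were lower, against 22.2% and 22.3% of all probes. The median difference of these neighbours was 0.78. The nearest of the higher ones was TRAIP at 58.6 kb, with a log2 difference of 1.43. Another was MST1, which encodes the ligand of MST1R, 203 kb away, with negative control signals of 63.3 in MKN74 and 334 in MKN45 and a log2 difference of 2.33. MST1 has near-identical pseudogene copies, and which of them the probe reads was not tested. The neighbours of FGFR2 had a median difference of 1.42 over 12 probes, of which 6 were higher, but this fell to 0.41 over the 8 probes above background on both arrays. The nearest measured probe, of a transcript without a gene symbol, was at -0.37, and that of ATE1, the next, was at -0.31. The neighbours of FGFR4 had a median of -0.08, with 11 of 47 higher and 13 lower, near the shares of all probes. Those of FGFR1 were lower in MKN45 in the median, at -0.69, with 12 of 30 lower and 3 higher, opposite to FGFR1 itself. For the remaining 5 receptors the medians ran from -1.05 around FGFR3 to 1.10 around IGF1R, which rested on 9 probes and was -0.03 over the 6 above background on both arrays.

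**Figure D4:**
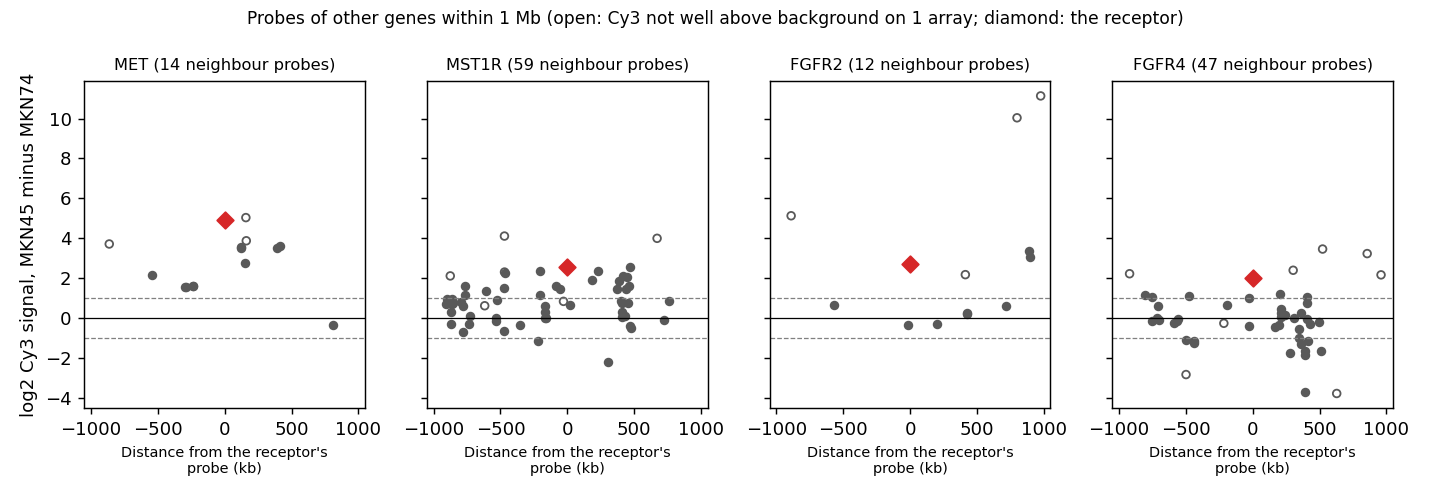
Log2 difference of Cy3 signal, MKN45 minus MKN74, of probes of other genes against their distance in kb from the receptor's probe, for MET, MST1R, FGFR2 and FGFR4. The red diamond is the brightest probe of the receptor, open circles were not well above background on 1 array, and dashed lines mark 2-fold. Around MET, 13 of 14 neighbours lie above the upper dashed line.

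Other genes of the pathway past 1.5-fold with the knockdown were counted list by list, beside the share of all genes. Lists this short would hold few such genes at the shares below, so low counts are not a result about the pathway. In 1 probe per gene over all genes, 3.82% were at least 1.5-fold higher and 1.73% lower in MKN74, and 4.68% and 1.92% in MKN45. None of the adaptor and docking genes (17 measured in MKN74, 16 in MKN45) and none of the negative regulators of receptor signalling (18 and 19) passed 1.5-fold. Their median log2 ratios were -0.06 and -0.02 for the adaptors and -0.01 and 0.02 for the negative regulators, against 0.01 for all genes in both lines. Of 9 genes whose transcription follows ERK signalling, ETV1 alone passed, at 0.62 (scanner error 0.57) in MKN74, where its Cy3 signal was not well above background and SET7/9 siRNA was at least 1.04-fold higher.

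Of the ligands, IGF2 and NRG4 passed 1.5-fold with both channels above background. IGF2, a ligand of IGF1R, had signals of 152336 with negative control and 86077 with SET7/9 siRNA in MKN74, a log2 ratio of -0.82 (scanner error 0.22) that was -0.76 after normexp and loess. In MKN45 its signals were 63.0 and 85.9, with a ratio of 0.45 (scanner error 0.22). NRG4, a ligand of the EGF receptor family, was at 47.2 and 28.9 in MKN74, a ratio of -0.71 (scanner error 0.27), and this was -0.27 after normexp. These were 2 of 13 ligands measured in MKN74. In MKN45 FGF2 and FGF22 were past the cutoff upward, at 0.69 (scanner error 0.41) and 0.66 (scanner error 0.76), among 16 measured ligands, and neither had Cy3 well above background. HGF, the ligand of MET, was not well above background in any sample.

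Of 9 measured genes for ligand processing and co-receptors, NRP1 and CD44 were past the cutoff upward in MKN74. NRP1, a co-receptor of several growth factors, had signals of 42.4 and 66.0 and a ratio of 0.64 (scanner error 0.25), which was 0.29 after normexp. CD44, which encodes a hyaluronan receptor, was at 1.47 (scanner error 0.84) with Cy3 not well above background. Its signals were 4.5 and 12.6, and its ratio was -0.02 after normexp. Among 37 other receptor tyrosine kinases, 22 were measured in MKN74 with none past the cutoff and 20 in MKN45. There PTK7 was at 1.74 (scanner error 0.89) without both channels above background, and NTRK2, a neurotrophin receptor, was at -0.85 (scanner error 0.46) from signals of 20.4 and 11.4. After normexp PTK7 was at 0.15 and NTRK2 at -0.21.

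Between the lines, 16 ligands were above background in Cy3 on at least 1 array. As 8 of them were above background on 1 array only, their differences are not counted here. Of the 8 ligands above background on both arrays, 2 were at least 2-fold higher in MKN45 and 5 lower, and the median size of the difference was 2.15 on the log2 scale, against 0.68 for all genes so measured. Among those lower, FGF1 (24.4 and 18.5) and FGF18 (46.7 and 24.4) were dim. With the 75th percentile scale they were at -0.11 and -0.64, and after normexp at -0.27 and -0.53, all within 2-fold. Over all genes with 1 probe each, 22.2% were higher and 21.5% lower, and these shares were 14.8% and 19.9% for genes above background on both arrays. IGF2 was at a log2 difference of -11.50, with negative control signals of 152336 in MKN74 and 63.0 in MKN45. AREG, a ligand of EGFR named here after its value was seen, had signals of 27733 and 670 and a difference of -5.21. Of the other receptor tyrosine kinases above background on both arrays, 6 of 17 were higher and 6 lower in MKN45. Of the adaptors 2 of 16 were higher and 6 lower, and of the negative regulators 2 of 17 were higher and 9 lower. Of the genes that follow ERK signalling 1 of 8 was higher and 4 lower, and of those for ligand processing and co-receptors 2 of 8 were higher and 2 lower.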

How the data were processed

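Total RNA of 4 cultures was measured on 2 Agilent Human GE 4x44K v2 arrays. The authors deposited scanner files from Agilent Feature Extraction 10.7.3.1, with the intensity of each spot in each dye (linear, background subtracted and dye normalized), the log10 ratio of the dyes with its error, and the p-value that the scanner software gives this ratio. A table of log2 ratios was deposited as well. Some of the signals not well above background are small surrogate values, and others are measured values. The arrays shared 1 slide and 1 scan. Their number limits the precision.

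Ratios were converted to log2 and averaged over the spots of a probe, without control spots and outlier spots. No gene spot was saturated. A probe counted as well above background where at least 50% of its spots did. Cutoffs were 1.5-fold for the knockdown and 2-fold between lines. For the lines, processed signals were scaled by Aquantile (limma 3.58.1, R 4.3.3). The normexp alternatives used an offset of 50. Where a channel was not well above background, a bound used the higher of its own signal and the lowest signal that was. A limma fit with Benjamini-Hochberg adjustment gave the common response. It was also run on simulated ratios with the same spread for every probe, which does not show what it could find in these data. Lists used the brightest probe per gene. Named were all 10 receptors, SETD7 and GAPDH, list genes past 1.5-fold and the nearest neighbours past 2-fold. HGF, AREG, ATE1, FGF1 and FGF18 were named after their values were seen. The receptors and lists were chosen with earlier results of these data known. Of the 20 probes, 17 matched the RefSeq gene table by accession, all with the same symbol. Coordinates are on GRCh37, and exon positions were not used here. Alternatives covered normalization, centring, source of values, filters, cutoffs, scaling, channel and window. Analyses used Python 3.11.15.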

Additional observations from a re-analysis of the deposited data

Results flagged for a closer look

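The knockdown ratio of EGFR probe 2 was above 0 in MKN74 (0.49, scanner error 0.26) and below 0 in MKN45 (-0.28, scanner error 0.24), each beyond its scanner error, a difference of -0.76 (MKN45 minus MKN74) on the log2 scale. The opposite was seen for FGFR2 probe 2, at -0.31 (scanner error 0.24) and 0.24 (scanner error 0.22), a difference of 0.55. Each line had 1 array, so neither difference was tested. After normexp and loess the ratios were 0.25 and -0.02 for EGFR probe 2 and -0.15 and 0.10 for FGFR2 probe 2.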

How the results depend on the processing

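With 1 array per line nothing here measures variation between cultures, and dim probes depend most on the background correction and scaling. The offset of 50 in normexp shrinks the values of dim probes by itself, so their smaller values after it are no separate check. Of 198 alternative values of single receptor ratios, 196 moved by less than the scanner error. The 2 others were those of ERBB3 probe 3 and EGFR probe 2 in MKN45 after normexp and loess. Most of the other settings could hardly move a ratio, so this count was largely fixed in advance. All receptor probes used had both channels above background, so the filters left their ratios as they were. The deposited table holds nearly the same ratios, rounded, and median centring moved each ratio by 0.01. Of 87 alternative values of the differences between lines, 24 moved by more than the scanner error. No called value changed its sign. Leaving out either array leaves no residual degree of freedom in limma, so it gives no test. Each ratio already pairs the 2 samples of a line, and with 1 array per line no further paired analysis was possible. Alternatives without a value for a probe, such as a filter on both channels, were left out for that probe.

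The causes of the following changes were not tested. For the knockdown counts, the share of all probes or genes under each alternative was not computed. They show only how the counts moved. Without a filter, 2 receptor probes in place of 1 were at least 1.5-fold lower in MKN45, the second being FGFR1 probe 3. Its signals there were 7.7 and 2.2, not well above background, with a ratio of -1.81 (scanner error 1.36). The lists then had, in MKN74, 1 other receptor kinase, 1 ligand and 1 adaptor higher, and 1 other receptor kinase and 5 ligands lower. In MKN45 they had 1 adaptor higher and 5 other receptor kinases and 3 ligands lower. With the deposited table or with both channels required, 1 gene of ligand processing was higher in MKN74 and 0 of the genes that follow ERK signalling, and in MKN45 0 other receptor kinases and 0 ligands were higher. After normexp and loess, 1 ligand was lower in MKN74, 0 genes of ligand processing and 0 that follow ERK signalling were higher there, and in MKN45 0 other receptor kinases were higher or lower and 0 ligands were higher. Between the lines, 5 receptor probes were higher when both arrays had to be above background (14.4% of all probes), 0 were lower after normexp (13.3%), and 5 were lower at 1.5-fold (32.0%).

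The median difference of the neighbours moved by more than their scanner error as follows. With the 75th percentile scale it was 0.57 for ERBB3, -0.23 for FGFR1, 1.78 for FGFR2, -0.81 for FGFR3 and 1.73 for IGF1R. After normexp it was 1.73 for MET, -0.42 for FGFR1, 0.59 for FGFR2, -0.78 for FGFR3 and 0.33 for IGF1R. In Cy5, over the probes above background in Cy5 on at least 1 array, it was 2.85 for MET, -0.82 for FGFR3 and 0.59 for IGF1R. With both arrays above background it was 2.15 for MET, 0.41 for FGFR2 and -0.030 for IGF1R. Within 2 Mb it was -0.29 for ERBB2, -0.030 for ERBB3, 0.22 for FGFR2, -0.74 for FGFR3 and 0.77 for IGF1R.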
